A study of Mus musculus with 64 samples.

Results

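Clone K is 1 of 7 clonal lines of pancreatic tumor cells (E, H, K, M, N, T and V) subcloned from the KPC mouse, whose pancreatic cells carry a mutant allele of Trp53 beside a normal allele, among driver alleles recombined by Pdx1-Cre. Its 4 mono-culture libraries were chosen by their labels from 64 RNA sequencing libraries, and were set against the 24 mono-culture libraries of the 6 other clones, 4 of each, with each clone averaged before the clones were combined. All 28 libraries came from tumor cells of C57BL/6 mixed background grown alone and share the same driver alleles, so there was no untreated arm and no drug, and the groups are separated by clone and, in large part, by the sample sheet described below. The study placed clone K in its metabolic group 2 with M, N and T, and clones E, H and V in group 1, while the KPC1 line, which it assigned to neither, was left out. The 4 coculture libraries of clone K and the 24 of the 6 other clones, for which tumor cells were recovered from 48 h of growth with fibroblasts by their green fluorescence, were used only to ask whether the same genes stood apart in other libraries. A clone is a single line grown from a tumor cell, so every value below describes that line, and the labels do not say whether the 4 libraries of a clone were separate cultures, so p-values measure the spread between libraries, which may be technical.

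Pancreatic ductal adenocarcinoma of the KPC mouse arises from epithelial cells in which mutant p53 removes a brake on growth. The tumor cells lie along a range from an epithelial state, held by E-cadherin and factors such as Ehf, to a mesenchymal state in which cells make contractile proteins and respond to TGF-beta. Subcloned lines of such tumors are known to keep stable differences in state, in secreted signals to immune cells and in metabolism.

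The 4 mono-culture libraries of clone K held between 14781274 and 16070068 counts, and the 24 libraries of the other clones between 11661214 and 21333683. Sample numbers in the labels run in 2 series, read here as sample sheets A and B. Sheet B held all 4 mono-culture libraries of clone K and 4 of the 24 others (1 of H, 1 of M and 2 of T), so sheet and clone cannot be fully told apart in mono-culture, whereas the coculture libraries of clone K were split, 2 on each sheet. The lowest correlation between 2 single libraries of clone K was 0.977, and the highest between a single library of clone K and one of another clone was 0.934 (Pearson's r of log2 CPM across genes, which are not independent replicates). Levels are given as CPM, the count on a gene scaled to the normalized library total and not to gene length, and 3 counts over the 4 libraries of clone K, taken as the floor, equal 0.0509 CPM. Such floors cover counting error only.

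The label, pancreatic tumor cells, was checked against defining markers. The keratins of simple epithelia were abundant in clone K, with Krt8 at 1046, 1028, 1512 and 1446 CPM in replicates 1 to 4 and Krt18 at 1274, 1214, 1738 and 1488 CPM. The ductal keratin Krt19 was measured at 109, 130, 98.5 and 345 CPM, against 176 to 1176 CPM (median 600) in the other clones. E-cadherin, Cdh1, was measured at only 4.58 to 7.64 CPM, against a median of 71.9 CPM in the 24 other libraries, and Epcam, the epithelial adhesion molecule, at 0.0702 to 0.625 CPM, close to 0 as in the other clones, whose highest library was at 0.739 CPM. Markers of other cells were low: 16 immune markers summed to 6.87 to 11.7 CPM in the libraries of clone K, 10 endothelial markers to 0.702 to 2.01 CPM, and 18 acinar and islet markers to 4.25 to 5.27 CPM. Of 20 fibroblast markers, 7 had no count in clone K, among them Dcn, Fap, Thy1, Lum and Pdpn. Clones E, H, M, N and V also had 7 members without a count, and T had 8. The list summed to 287 to 419 CPM in clone K, against 128 to 409 CPM in the 24 other libraries. Of its 11 members tested, 7 were above the mean of the 6 clones (against 35.8% of all genes) and 2 below (against 33%). Their median log2 difference was 0.72.

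A gene was termed K-high when it exceeded each of the 6 other clones by at least 2-fold with an adjusted p under 0.1 in all 6 comparisons (edgeR's quasi-likelihood test with Benjamini-Hochberg adjustment), and K-low when it lay below all 6 by the same measure. Of 13509 genes tested, 148 were K-high (1.10%) and 310 were K-low (2.29%). The count of K-low genes was the highest of the 7 clones, the others having 38 (T) to 165 (V) by the same rule, whereas the K-high count lay among theirs, from 46 (E) to 215 (V). Against the mean of the 6 clones, 4830 genes were higher in clone K (35.8%) and 4464 lower (33%), with a median log2 difference over all genes of 0.0044. The genes closest to the 2-fold line were Apol9a (2.01-fold over its nearest clone) and Gzmm (2.02-fold) just inside and Megf9 (1.99-fold) and Stac3 (1.99-fold) just outside, and for K-low genes Vars (2.01-fold) and Nrm (2.01-fold) inside with Acacb (1.99-fold) and Nrarp (1.99-fold) outside. Within sheet B, where only H, M and T could be compared, 269 genes were K-high and 367 K-low, of which 125 and 230 were among those of the full comparison, and with the sheet as a term in the fit there were 166 K-high genes and 294 K-low genes. By correlation of clone means over all genes, clone K was nearest to clone M (r = 0.950) and farthest from clone N (r = 0.913), both of group 2.

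When the 4 libraries of each clone were summed and the sum of clone K was tested against the 6 others, 3 of 16373 genes were called higher (0.0183%) and 2 lower (0.0122%). These were Epb4.1l3 (adjusted p = 0.0019), Fam211b (0.053) and Tagln (0.071) above, and Smim20 (0.053) and Ntpcr (0.053) below, by the same edgeR test. At an unadjusted p under 0.05 there were 714 higher and 835 lower. DESeq2 on the same sums called 239 higher and 585 lower, so the count at this level depends on the tool, and the K-high and K-low genes are described below by the spread between libraries.

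The genes that set clone K apart most plainly were those on in it and off elsewhere, taken as at least 1 CPM in clone K and under 0.1 CPM in every other clone. There were 5 such genes, Epb4.1l3, Tshz3, Gdf6, Acta2 and the predicted gene Gm21911, against none in E and T and 19 in V by the same definition. Epb4.1l3, which links membrane proteins to the cytoskeleton (chr17:69075683-69289989, GRCm38), was measured at 136, 83.8, 115 and 93.2 CPM in replicates 1 to 4. In the 24 other libraries it did not exceed 0.0629 CPM, 22 of them had no count, and KPC1 was at 0.016 CPM. Tshz3, a zinc finger homeobox transcription factor (chr7:36698118-36773553), was at 12.6, 18.5, 12.7 and 17.3 CPM and had no count in any of the 24 others, so that clone K was at least 271-fold higher, with the floor of 3 counts taken over the libraries of a clone. Its log2 difference of 10.92 was the same with the sheet as a term in the fit, where the call was lost (edgeR adjusted p = 1), and was 10.89 within sheet B, where it was called (adjusted p = 2.96e-06). Neither gene overlapped with any other clone.

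Gdf6, a ligand of the BMP family (chr4:9844372-9862345), was measured at 0.972, 3.06, 2.16 and 2.46 CPM and stayed at or under 0.119 CPM elsewhere, with 19 of 24 libraries at 0. Acta2, smooth muscle actin (chr19:34241090-34255590), reached 2.2, 0.278, 1.35 and 0.702 CPM against at most 0.138 CPM, a low level that did not pass the filter on low counts, so it was not tested. Gm21911 was at 4.4, 8.68, 3.44 and 8.29 CPM against at most 0.244 CPM. Each of these 5 genes was higher in all 4 libraries of clone K than in all 24 others.

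The 6 genes off in clone K alone had the reverse form, under 0.1 CPM in clone K and at least 1 CPM in every other clone. Wnt10a, a Wnt ligand (chr1:74791516-74804179), had no count in the 4 libraries of clone K and 1.38 to 40.4 CPM (median 10.7) in the others, at least 38.7-fold lower. Snap25, a membrane fusion protein of secretory vesicles (chr2:136713453-136782428), also had no count in clone K, against 1.4 to 26.2 CPM (median 8.88), at least 55.6-fold lower. Brsk1, a kinase of neuronal polarity (chr7:4690604-4715997), was likewise without a count against 0.517 to 13.4 CPM, at least 20.04-fold lower. All of these were present in the KPC1 line as well, at 9.54, 14.3 and 14.5 CPM.

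The other 3 kept a trace. Hspb1, the small heat shock protein Hsp27, had 2 counts in clone K, all in replicate 2, against 0.83 to 30.2 CPM elsewhere. Svip, an inhibitor of protein degradation at the endoplasmic reticulum, had 4 counts against 3.24 to 11.4 CPM. Plekha7, a protein of the adherens junction, had 5 counts against 1.11 to 17.9 CPM. In all 6 genes every library of clone K lay below every library of the other clones.

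**Figure D1:**
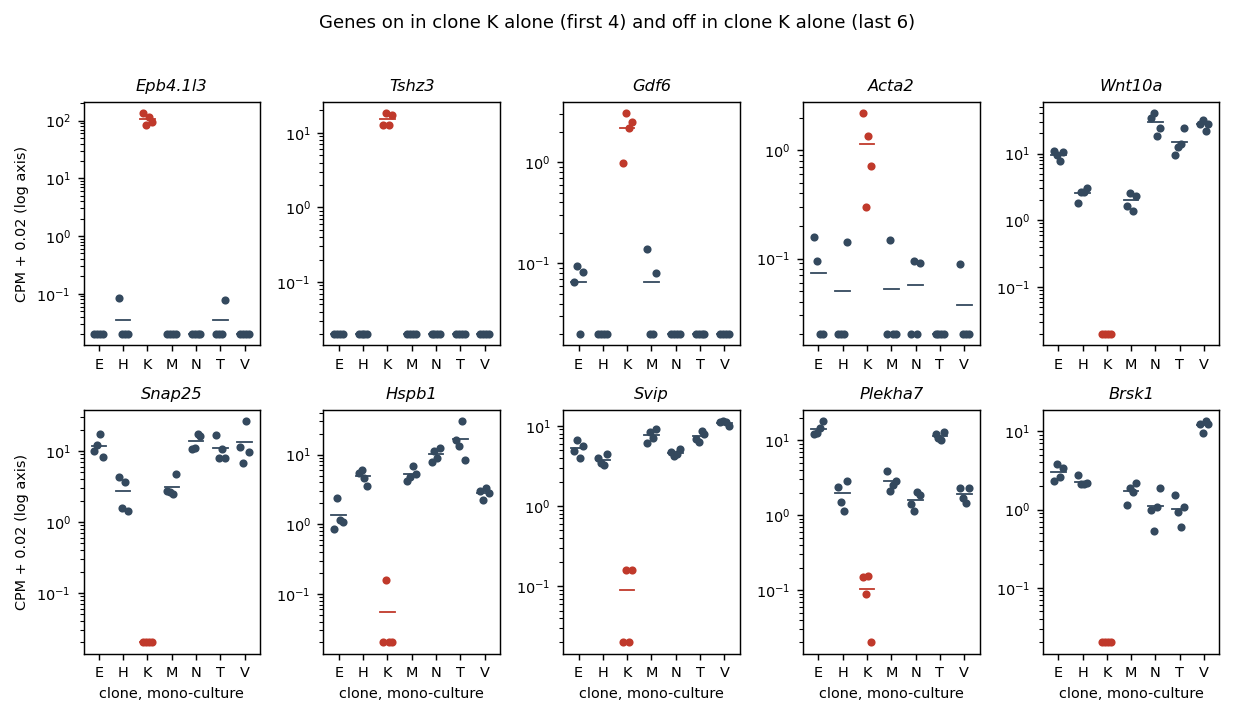
CPM plus 0.02 on a log axis for 4 of the 5 genes on and the 6 genes off in clone K alone, with a point for each mono-culture library, a line at the mean of each clone, and clone K in red. The clone K points lie apart from all others in every panel, at 83.8 to 136 CPM for Epb4.1l3 and at no count for Wnt10a, Snap25 and Brsk1.

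The start regions of Epb4.1l3 and Tshz3, which were on, and of Htatip2 and Svip, which were off or nearly so, are shown because these genes are among those with the widest contrasts between few or no reads and many. They were taken from RefSeq on GRCm38.p6 and run from 250 bases before to 50 bases after the annotated start, printed 5′ to 3′ on the strand of the gene, with CG dinucleotides, the sites of DNA methylation in mammals, in capitals. The entry of Epb4.1l3 (chr17:69075427-69075726, plus strand, named Epb41l3 there and 1 of 3 listed for the gene) held 16 CG at 58.3% GC, Tshz3 (chr7:36697868-36698167, plus strand) 33 at 76.0%, Htatip2 (chr7:49758856-49759155, plus strand, 1 of 2) 27 at 69.0%, and Svip (chr7:52005665-52005964, minus strand, 1 of 2) 24 at 71.7%. Brsk1, without a count in clone K, also has an entry, not printed here, with 18 CG at 78.7% GC. The median over 9927 tested genes with an entry was 21 CG, and it was 19 both for K-high and for K-low genes. Methylation was not measured.
Epb4.1l3: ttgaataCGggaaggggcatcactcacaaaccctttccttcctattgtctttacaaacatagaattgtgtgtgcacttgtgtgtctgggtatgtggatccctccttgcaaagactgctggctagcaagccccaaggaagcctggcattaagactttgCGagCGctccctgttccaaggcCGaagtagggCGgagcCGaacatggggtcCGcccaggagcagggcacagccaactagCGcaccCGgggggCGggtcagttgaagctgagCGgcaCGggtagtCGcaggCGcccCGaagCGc
Tshz3: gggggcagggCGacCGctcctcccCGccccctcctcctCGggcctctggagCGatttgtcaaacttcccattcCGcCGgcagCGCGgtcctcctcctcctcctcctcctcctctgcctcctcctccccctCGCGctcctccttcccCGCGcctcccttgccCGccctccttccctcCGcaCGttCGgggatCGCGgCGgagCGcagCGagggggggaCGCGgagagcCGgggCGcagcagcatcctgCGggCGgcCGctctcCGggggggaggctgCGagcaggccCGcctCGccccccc
Htatip2: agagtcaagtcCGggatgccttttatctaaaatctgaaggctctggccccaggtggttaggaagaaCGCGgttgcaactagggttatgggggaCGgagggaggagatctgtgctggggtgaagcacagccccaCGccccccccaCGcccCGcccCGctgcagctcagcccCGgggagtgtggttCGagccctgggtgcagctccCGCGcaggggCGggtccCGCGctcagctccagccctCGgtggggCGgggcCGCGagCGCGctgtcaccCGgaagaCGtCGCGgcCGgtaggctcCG
Svip: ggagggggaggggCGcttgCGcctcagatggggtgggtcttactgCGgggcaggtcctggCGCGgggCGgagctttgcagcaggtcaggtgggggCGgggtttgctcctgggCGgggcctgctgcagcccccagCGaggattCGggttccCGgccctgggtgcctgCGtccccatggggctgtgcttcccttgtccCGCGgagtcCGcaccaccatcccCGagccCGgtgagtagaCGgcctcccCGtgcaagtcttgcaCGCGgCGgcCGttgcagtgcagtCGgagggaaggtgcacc

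Among K-high genes at 5 CPM or more, those with the largest gap to the next clone after Epb4.1l3 and Tshz3 were Akap12, Fam211b, Ica1l, Msrb3, Tagln, Olfm1, Scn9a, Acot1, Sema3d, Amigo2, Soga3, Mal and Cxcl12. Akap12, a scaffold for protein kinases A and C (chr10:4266380-4359470), was at 53, 14.9, 45.5 and 28 CPM, 31-fold over the next clone, V, and no other library exceeded 1.53 CPM. Fam211b (chr10:75550123-75560330) was at 17.7, 10.3, 19.9 and 11.9 CPM against at most 0.887 CPM. Msrb3, which repairs oxidized methionine (chr10:120781096-120899101), was at 122, 43.1, 81.6 and 73.5 CPM, 9.98-fold over clone E, and the others spanned 0.344 to 9.31 CPM. All libraries of clone K lay above all 24 others for each of these 13 genes.

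Several of this set encode secreted or membrane proteins. Cxcl12, the chemokine that binds Cxcr4, was the most abundant, at 1109, 722, 801 and 890 CPM in clone K. It was at 154, 82.1 and 103 CPM on average in M, T and V, had no count in E, and stayed under 1 CPM in H and N, so that clone K exceeded its nearest clone 5.72-fold. Sema3d, a secreted guidance protein, was at 42.9, 25.2, 30.9 and 25.1 CPM against at most 6.36 CPM. Olfm1, a secreted glycoprotein, was at 31.5, 44.6, 35.9 and 19.8 CPM against at most 4.54 CPM, and the adhesion protein Amigo2 was at 8.94, 7.5, 6.47 and 4.99 CPM against at most 1.3 CPM. Scn9a, the voltage-gated sodium channel Nav1.7, was at 9.13, 12.2, 8.76 and 7.73 CPM against at most 1.33 CPM in the 6 clones, but KPC1 had 14.5 CPM, so it was not restricted to clone K among the lines sequenced.

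Soga3 showed the most even expression in clone K, 29.1, 29.9, 27.4 and 29.3 CPM, with V at 4.59 CPM and the other clones at or near 0. Acot1, an acyl-CoA thioesterase, was at 16, 20.1, 14 and 13.7 CPM, with H at 2.21 CPM and the others at or near 0. The lipid raft protein Mal was at 13.1, 10.3, 13 and 15.7 CPM against at most 2.3 CPM, and Ica1l at 5.7, 3.26, 5.6 and 6.67 CPM against at most 0.813 CPM.

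The K-low genes of largest gap, among those at 5 CPM or more in every other clone, were headed by Htatip2, an oxidoreductase. It was measured at 0.0648, 0.139, 0 and 0.562 CPM in clone K and at 11.8 to 38.1 CPM (median 23.3) in the others, 66-fold under the nearest clone, H. Smim20, a mitochondrial protein needed to assemble cytochrome c oxidase, followed at 0.777, 1.53, 1.28 and 1.55 CPM against 15.2 to 31.6 CPM, a 14.1-fold gap. Tbx2, a T-box repressor of transcription, was at 0.194, 0.556, 0 and 1.05 CPM against 3.73 to 61.3 CPM. Ptges, which makes prostaglandin E2, was at 2.2, 2.64, 2.02 and 6.6 CPM against 32.9 to 170 CPM, a 12.1-fold gap. Itih2, Frmd4b, Isoc1, Blmh and Proser2 had gaps of 9.59, 9.34, 8.75, 6.14 and 5.66-fold, and in these genes every library of clone K lay under all 24 others. The remaining 6 of the 15, Ccnb2, Aurkb, Cdca3, Kif18b, Ube2c and Hmmr, all act in mitosis.

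**Figure D2:**
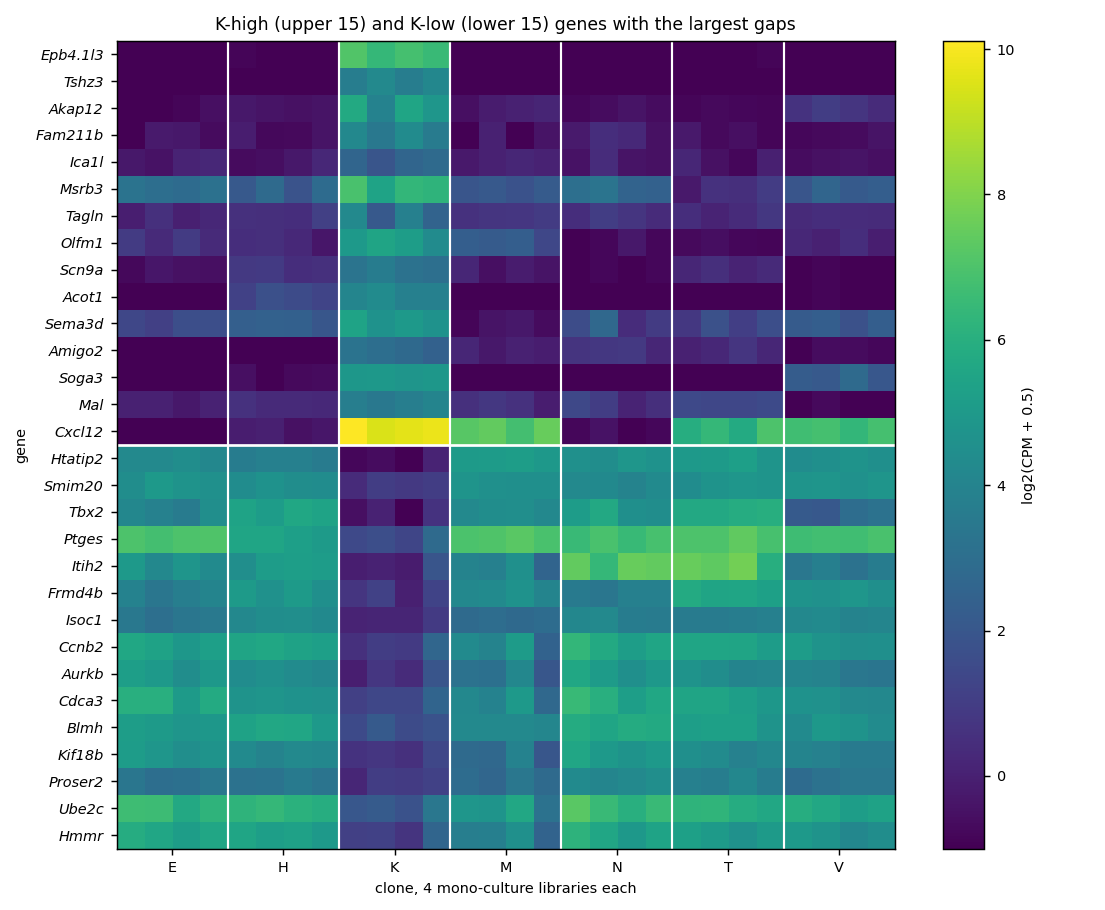
Colors give log2(CPM + 0.5) of the 15 K-high (upper) and 15 K-low (lower) genes of largest gap in the 28 mono-culture libraries, 4 columns a clone. The K columns are the brightest of each upper row and the darkest of each lower row, apart from Ccnb2, Ube2c and Hmmr, in which the last column of M falls below the last column of K.

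Genes of DNA replication and mitosis were mostly low in clone K. Of 45 tested, 13 were K-low (28.9%, against 2.29% of all genes), 37 were below the mean of the 6 clones (against 33% of all genes) and 2 above it, and 30 were lower in clone K than in each other clone (against 19.4% of all genes). Their median log2 difference from the mean was -1.29, and -0.92 within sheet B. In single libraries of clone K, set against the mean of the 6 other clones, the median of the list was -1.18, -1.20, -1.16 and -1.03 on the log2 scale. Against that same mean, which includes M itself, clone M was low as well, at -0.82, -0.81, -0.30 and -1.25 in its replicates 1 to 4. Its replicate 4 thus lay below every library of clone K. The summed level of the list overlapped between both clones, at 2298 to 2651 CPM in K and 2028 to 3234 CPM in M.

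Mki67, the proliferation marker, was at 2.4, 5.49, 4.18 and 17.3 CPM in clone K against 16.4 to 186 CPM (median 82.4) in the others. Top2a, which untangles replicated DNA, was at 14, 19.5, 15.7 and 34.4 CPM against 50.9 to 554 CPM (median 256), so all of its libraries lay under all others. Ccnb2, a mitotic cyclin, was at 0.972, 1.53, 1.35 and 5.83 CPM and Aurkb, a kinase of the chromosomal passenger complex, at 0.453, 1.18, 0.809 and 3.3 CPM, with medians of 38.1 and 20.4 CPM in the others. Ube2c, which tags mitotic proteins for destruction, was at 3.5, 4.03, 3.03 and 10.1 CPM against a median of 62.1 CPM. In Mki67, Ccnb2, Ube2c, Hmmr and the checkpoint kinase Bub1, replicate 4 of clone K was the highest of its 4 and overlapped with 1 library of the other clones. The next clone in order was M in each of these genes, with 35.5 CPM of Mki67 and 18.4 CPM of Ccnb2 on average.

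Cdc6, which loads the replicative helicase, was at 0.486 to 0.983 CPM against 1.28 to 25 CPM, and Brca2, a DNA repair protein, at 4.03 to 5.62 CPM against 9.09 to 35.6 CPM. Cyclin D1, Ccnd1, was at 121, 140, 195 and 326 CPM against 250 to 1027 CPM and missed the 2-fold line at 1.71-fold. Its partner kinase Cdk4, named after its values were seen, lay on the other side, at 869, 865, 832 and 701 CPM against 355 to 609 CPM (log2 difference from the mean 0.84, SE 0.06, adjusted p = 1.28e-11). Cdkn2a, which encodes the Cdk4 inhibitor p16 and the p53 activator Arf, was at 549, 493, 543 and 385 CPM, close to V at 465 CPM and above the 5 others at 80.8 to 233 CPM.

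**Figure D3:**
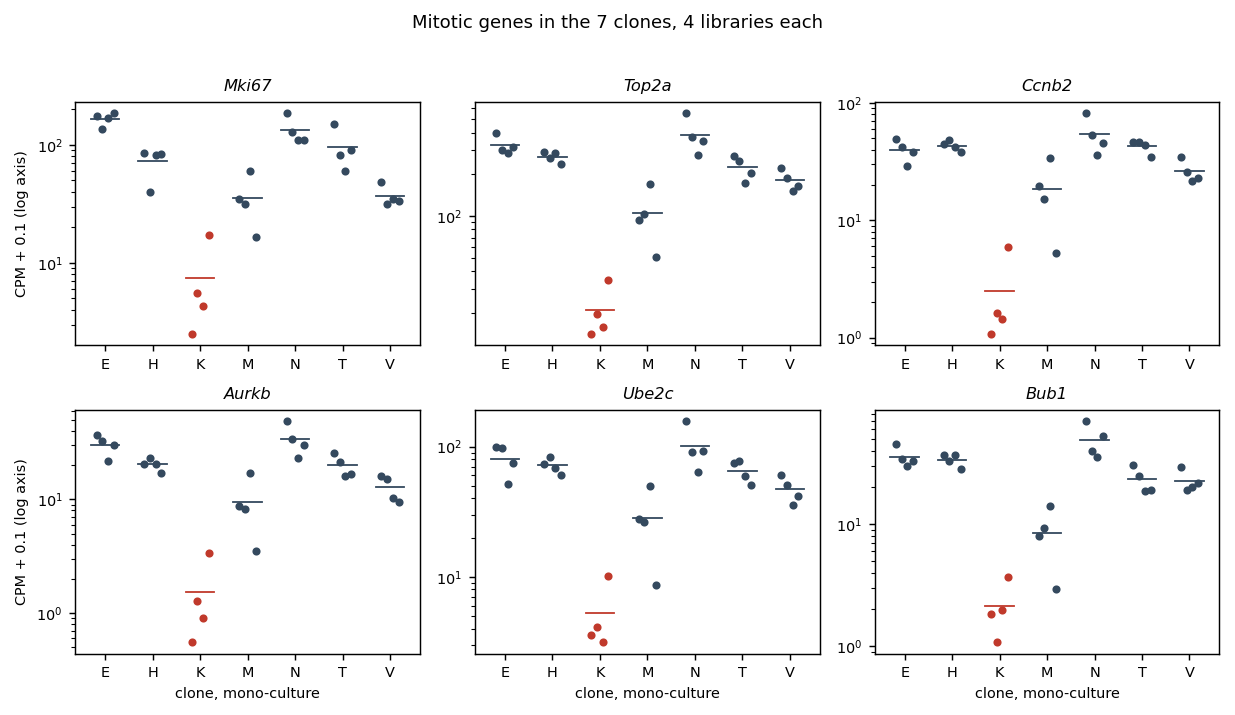
CPM plus 0.1 on a log axis for 6 mitotic genes, with a point for each mono-culture library, a line at the mean of each clone and clone K in red. Clone K has the lowest mean in every panel and clone M the next lowest, as for Mki67 at 7.34 and 35.5 CPM.

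The start regions of 3 of these mitotic genes are printed because their promoters are known to carry CCAAT boxes, bound by NF-Y, and the cell cycle homology element TTTGAA. They are RefSeq entries on GRCm38.p6 of 300 bases, 5′ to 3′ on the strand of the gene, with matches to CCAAT and TTTGAA on either strand in capitals, which read ATTGG and TTCAAA on the other strand. Ccnb2 (chr9:70421505-70421804, minus strand) held 3 CCAAT and 2 TTTGAA, Ube2c (chr2:164769679-164769978, plus strand) 6 and 1, and Cdca3 (chr6:124829926-124830225, plus strand) 3 and 1.
Ccnb2: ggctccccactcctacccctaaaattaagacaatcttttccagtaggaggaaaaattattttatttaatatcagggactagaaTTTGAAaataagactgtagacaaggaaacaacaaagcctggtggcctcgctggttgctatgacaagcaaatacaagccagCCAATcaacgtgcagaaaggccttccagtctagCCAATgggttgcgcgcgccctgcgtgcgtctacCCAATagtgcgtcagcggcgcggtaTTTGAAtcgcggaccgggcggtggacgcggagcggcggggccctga
Ube2c: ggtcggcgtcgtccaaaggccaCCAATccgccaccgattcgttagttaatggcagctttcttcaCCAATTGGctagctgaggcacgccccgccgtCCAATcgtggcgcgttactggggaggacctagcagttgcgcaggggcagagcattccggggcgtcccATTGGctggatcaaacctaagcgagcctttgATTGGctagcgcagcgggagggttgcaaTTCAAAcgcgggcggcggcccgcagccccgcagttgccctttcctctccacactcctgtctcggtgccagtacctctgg
Cdca3: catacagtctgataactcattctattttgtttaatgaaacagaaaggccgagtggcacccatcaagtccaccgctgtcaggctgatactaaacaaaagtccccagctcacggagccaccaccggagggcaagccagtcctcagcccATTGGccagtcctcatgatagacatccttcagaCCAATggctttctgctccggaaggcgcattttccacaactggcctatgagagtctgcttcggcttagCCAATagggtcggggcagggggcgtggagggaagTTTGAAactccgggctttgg

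TTTGAA was found on either strand in 25.2% of the 226 K-low genes with an entry, 10.4% of 106 K-high genes and 11.7% of the 9927 tested genes with an entry, and in 18.1% of all 27025 promoters of the table. CCAAT was found in 46% of K-low, 38.7% of K-high and 39% of tested genes, and in 37.9% of all promoters. A CCAAT and a TTTGAA match can overlap by 1 letter at most. Matches of CCAAT on opposite strands can share more, as in the CCAATTGG of Ube2c, where both were counted. Of the 11 K-low members of the cell cycle list with an entry, 81.8% held CCAAT and 45.5% TTTGAA, while the 215 K-low genes outside the list held TTTGAA in 24.2%. The list does not hold every mitotic gene: Ube2c and Cdca3, printed above, are among those 215. The share in K-low genes without a part in the cell cycle was therefore not measured. A match describes letters in the window and not a bound site.

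Contractile and TGF-beta genes stood on the high side in clone K, though by summed level not in it alone. Of 12 mesenchymal and contractile genes tested, 8 were above the mean of the 6 clones (against 35.8% of all genes) and 2 below, with a median log2 difference of 0.94. Tagln and Cnn2 were K-high (16.7%, against 1.10% of all genes). The list summed to 14816 to 17890 CPM in clone K, overlapping with H at 17662 to 22048 CPM and V at 14337 to 15550 CPM. In coculture the median of this list was 0.04, with 5 of 12 above the mean (against 34.5% of all genes there) and none K-high. Tagln, an actin-binding protein of smooth muscle (chr9:45929619-45936058), was at 18.5, 3.82, 13.8 and 5.27 CPM against 0.461 to 1.65 CPM, 8.67-fold over the next clone. Cnn2, a calponin, was at 1166, 718, 1083 and 1100.1 CPM against 134 to 551 CPM, 2.13-fold over H. The fibroblast list had 7 of its 11 tested members above the mean, and its sum in clone K overlapped with that of clone N. Dcn, Fap, Thy1, Lum and Pdpn were at 0, although Dpt, a matrix protein of the fibroblast list, was itself K-high at 1.55 to 4.03 CPM against at most 0.756 CPM.

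Of 37 genes of the TGF-beta and BMP pathways, 24 were above the mean (against 35.8% of all genes) and 5 below, at a median log2 difference of 0.73. The list summed to 4049 to 4439 CPM in clone K, overlapping with T at 3996 to 4878 CPM and N at 3246 to 4442 CPM. The ligands led the group: besides Gdf6, Tgfb2 was K-high at 154, 180, 124 and 154 CPM against 9.16 to 52.2 CPM (median 22.3), 3.46-fold over E. Tgfb1i1, a focal adhesion protein induced by TGF-beta and named after its values were seen, was at 112, 79.1, 96.4 and 104 CPM against 0 to 28 CPM, 4.02-fold over H. The BMP inhibitor Nog, also named after its values were seen, was at 3.82, 0.972, 2.49 and 0.913 CPM in clone K and at 3.6 CPM on average in V, with the other 5 clones under 0.3 CPM, so it was not K-high. Smad4, the shared mediator of the pathway, differed little, with 126 to 143 CPM against 91.3 to 176 CPM (log2 difference 0.21).

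Matrix and growth factor genes of the same kind included Thbs1, a matricellular protein that activates latent TGF-beta, at 6496, 3265, 5581 and 2333 CPM in clone K against 157 to 1296 CPM, 3.86-fold over M. The proteases Mmp11 (130.3, 154, 120.0 and 111 CPM against 10.4 to 47.7 CPM) and Adam12 (22.1, 20.2, 30.7 and 28 CPM against 0.387 to 12 CPM) were both K-high, as was Plk2, a kinase induced by p53, at 449, 142, 354 and 133 CPM against 22.8 to 110.2 CPM. Ankrd1 and Amotl2, targets of YAP and TAZ named after their values were seen, were at 914, 335, 738 and 381 CPM and at 805, 390.3, 615 and 479 CPM, 2.41- and 2.70-fold over the next clone. In Tagln, Thbs1, Plk2, Akap12, Ankrd1 and Acta2 replicates 1 and 3 of clone K were the higher pair, though in each of these genes every library of clone K remained above all 24 others. Fgf2, a growth factor, was K-high at 0.702 to 1.69 CPM against at most 0.518 CPM, whereas Fgf1 was K-low at 2.09 to 5.27 CPM against 6.8 to 61.7 CPM.

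Among matrix and adhesion genes on the low side, Col16a1, a fibril-associated collagen, was at 0.453 to 1.19 CPM against 2 to 43.3 CPM, and Itga2, the collagen-binding integrin chain, at 2.08 to 3.93 CPM against 8.38 to 36.9 CPM. Of 25 collagen genes tested 6 were above the mean and 10 below, at a median of -0.31, and of 25 integrins and laminins 10 were above and 13 below, at -0.19. Of 34 matricellular genes 17 were above and 9 below, at 0.40, and of 40 MMP, ADAM, ADAMTS and TIMP genes 18 were above and 11 below, at 0.22. Over all genes tested, 35.8% were above the mean and 33% below.

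By number of genes, more signals to immune cells were low than high. Of 27 chemokine and cytokine ligands, 5 were above the mean (against 35.8% of all genes), with Cxcl12 the K-high member, and 14 below (against 33%), at a median log2 difference of -1.25, and 3 were K-low (11.1%, against 2.29%). These were Csf2, the colony-stimulating factor GM-CSF, at 0 to 0.211 CPM against 0.535 to 8.75 CPM, Cxcl15 at 0.0674 to 0.833 CPM against 1.58 to 16.9 CPM, and Cxcl17 at 0.135 to 0.281 CPM against 0.498 to 5.62 CPM. Il33, an alarmin named after its values were seen, was at 0.208 to 1.19 CPM against a median of 7.25 CPM, with clone E near it at 0.991 CPM. Every library of clone K lay under all others for Csf2, Cxcl15 and Cxcl17. The summed level of the list was not low, at 1288 to 1840 CPM in clone K, of which Cxcl12 alone made 722 to 1109 CPM. This sum overlapped with T at 1541 to 1767 CPM and N at 1073 to 1336 CPM. Clones E, H, M and V lay below it, at 698 to 1109 CPM.

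Of 15 genes of MHC class I presentation, 12 were below the mean (against 33% of all genes) and 2 above, at a median log2 difference of -1.62, and H2-M3 and Psmb10 were K-low (13.3%, against 2.29%). Psmb10, a subunit of the immunoproteasome, was at 4.53, 4.24, 4.79 and 6.04 CPM against 10.9 to 23 CPM. The classical heavy chain H2-K1 (chr17:33996017-34000347), named after its values were seen, was at 4.47, 7.57, 3.98 and 9.9 CPM against a median of 69 CPM, and the nearest clone was V at 11.9 CPM, 1.84-fold higher. H2-D1 was at 20.1, 30.8, 23.7 and 38.6 CPM, overlapping with V at 31.4 CPM and under the other 5 clones at 72.6 to 142 CPM. The light chain B2m and the checkpoint ligand Cd274 were the 2 members above the mean, by 0.68 (SE 0.10) and 1.97 (SE 0.20) on the log2 scale. Of 32 interferon-stimulated genes 12 were above (against 35.8% of all genes) and 13 below the mean (against 33%), at a median of -0.29. The low level was thus not shared by that list as a whole. Mx1 was its K-low member at 0 to 0.562 CPM against 0.194 to 3.65 CPM.

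Genes of stress and amino acid supply were lower in clone K than in most clones, with clone M near it or below. Of 32 targets of Atf4 and the integrated stress response, 24 were below the mean (against 33% of all genes) and 2 above, at a median log2 difference of -0.85. Asns, asparagine synthetase, was at 66.5, 32.1, 62.6 and 38.8 CPM (log2 difference -1.38, SE 0.28, adjusted p = 0.000126), where M was at 32.3 CPM and the other 5 clones were between 119 and 333 CPM. Psph and Shmt2, which make serine and split it to glycine, were at 14 to 23.2 CPM and 90.2 to 141 CPM, with M again below clone K at 15.6 and 87.6 CPM. Slc7a11, the cystine importer, was at 18.6 to 27.9 CPM against a median of 147 CPM, with M at 21.2 CPM. Atf4 itself was at 390, 261, 408 and 248 CPM (log2 difference -0.48), and Eif2ak4, the kinase GCN2 that senses amino acid shortage, at 44.7 to 50.2 CPM against 31.9 to 56.8 CPM (0.09, adjusted p = 0.331).

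Of 21 genes of the unfolded protein response, 17 were below the mean (against 33% of all genes) and 1 above, at a median of -0.62, and 14 were lower in clone K than in every other clone (against 19.4%). Xbp1, its transcription factor, was at 16.4 to 22.9 CPM against 25.1 to 103 CPM, and Ero1l, which forms disulfide bonds, at 25.2 to 35.5 CPM against 36.9 to 478 CPM. The chaperone Hspa5, named after its values were seen, was at 405, 328, 505 and 314 CPM against a median of 666 CPM. Of 23 genes of glycolysis and lactate transport 13 were below (against 33% of all genes) and 2 above, at -0.38. Hk2, the inducible hexokinase, was at 36.5 to 65.3 CPM against 45.4 to 257 CPM. No member of these 3 lists was K-high or K-low by edgeR's test and the 2-fold line. For hypoxia targets the median was 0.05 over 17 genes, yet Epas1, which encodes HIF2-alpha, and Car12, a carbonic anhydrase, were K-low, at 0 to 0.202 CPM against 1.01 to 45 CPM and at 0 to 0.0702 CPM against 0.183 to 22.9 CPM.

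Epithelial identity was split. Of 11 epithelial transcription and splicing factors tested, 7 were below the mean (against 33% of all genes), at a median of -0.89. Ehf was K-low, at 0 to 0.347 CPM against 0.189 to 20.9 CPM. The 20 junction and keratin genes gave 9 above (against 35.8% of all genes) and 7 below (against 33%), at 0.22. Cdh1 was below the mean by 2.88 (SE 0.11) on the log2 scale, but M was lower still, at 1.0 CPM on average. The tight junction protein Ocln was at 26.3 to 32.6 CPM, above 5 clones at 0.359 to 7.71 CPM and under M at 42.7 CPM. Muc1, an epithelial mucin, was at 3.89 to 6.22 CPM, above all 24 others at 1.22 to 3.59 CPM, but 1.61-fold over E. Of 8 EMT transcription factors 6 were above the mean (against 35.8% of all genes) and 1 below, at 0.40. Among them Prrx1 and Snai1 reached 40.1 to 45.4 CPM and 6.18 to 9.84 CPM, both lower than in H at 91.8 and 20.7 CPM.

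The cancer genes Trp53 and Myc were not set apart in clone K. Trp53, the mutated tumor suppressor, was at 276, 280, 300.4 and 244 CPM against 227 to 386 CPM (log2 difference -0.16), and Myc at 242, 176, 285 and 212 CPM against 147 to 415 CPM (-0.23), both inside the range of the other clones. Lists with members on either side included Wnt genes (35 tested, 16 above and 9 below), Nrf2 and glutathione genes (36, 14 and 12), cholesterol and fatty acid synthesis genes (27, 12 and 4) and p53 targets (20, 8 and 4). Over all genes tested, 35.8% were above the mean and 33% below. MAPK output genes were mostly on the low side, with 11 of 19 below and 2 above, at a median log2 difference of -0.32. Their summed level was 2116 to 2463 CPM in clone K, overlapping with M at 2016 to 3372 CPM. Of 18 Notch and Hedgehog genes 8 were above and 7 below, and the Notch target Hey1 was K-high at 2.22 to 3.93 CPM against at most 1.47 CPM, whereas the receptor Notch3 had no count in clone K against 0 to 8.54 CPM. Among 17 imprinted genes, the neighbors Sgce and Peg10 on chromosome 6 were K-low, at 0.0648 to 0.421 CPM against 3.49 to 39.1 CPM and at 0 to 0.211 CPM against 0.357 to 40.7 CPM, and Airn, the noncoding RNA of the Igf2r locus, was K-high at 10.3 to 23.6 CPM against 0.838 to 8.3 CPM.

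Whole chromosomes were shifted in clone K, as others were in other clones. With each clone set against the mean of the other 6, 4 chromosomes had a median past 0.2 on the log2 scale in K, as in E, H and N, against 1 in T, 2 in M and 7 in V, and the widest shift was that of chromosome 13 in N, at -0.65. By this measure chromosome 10 was at 0.35 in K and at -0.32 in V. The median log2 difference from the mean of the 6 clones was 0.39 over 635 genes of chromosome 10 and -0.33 over 1140 genes of chromosome 11. On chromosome 10 the 6 medians against single clones ran from 0.31 (N) to 0.64 (V), and 46.8% of its genes were higher in clone K than in every other clone, against 18.9% of all genes. It held 23 of the 148 K-high genes, 3.62% of its genes. On chromosome 11 the 6 medians ran from -0.29 (T) to -0.38 (M), 41.6% of its genes were lower than in every other clone, against 19.4% of all genes, and 45 of its genes were K-low (3.95%). Within sheet B the medians of the 2 chromosomes were 0.33 and -0.32, and in the coculture libraries of sheet A 0.37 and -0.30.

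**Figure D4:**
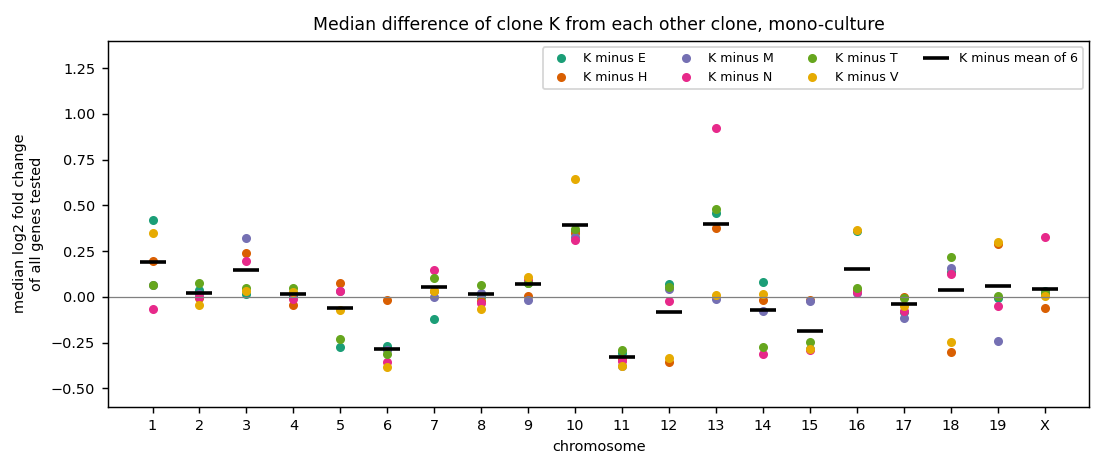
Median log2 fold change of all tested genes on each chromosome, clone K minus each of the 6 other clones (points) and minus their mean (bars), in mono-culture. All 6 points of chromosome 10 lie at or above 0.31 and all 6 of chromosome 11 at or below -0.29, whereas those of chromosome 13 spread from -0.01 to 0.92.

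Chromosome 13 had a median of 0.40, but its 6 medians ran from -0.01 (M) to 0.92 (N), and chromosome 6 had a median of -0.29 with H at -0.02, so neither set clone K apart from all clones. In windows of 25 neighboring genes of at least 5 CPM, those whose medians against all 6 clones lay past 0.3 on the log2 scale on the same side merged into 18 regions, 8 higher, all on chromosome 10, and 10 lower, 7 of them on chromosome 11, 2 on chromosome 6 and 1 on chromosome 17. The region of chromosome 17 (chr17:33239718-44086567, 104 genes) contains the MHC. Its median was -0.45, with -0.43 to -0.53 against single clones, and 81 of its 104 genes lay on the low side of the mean. Of the 15 antigen presentation genes 10 lie inside it, 9 of them called below the mean (against 33% of all genes). The region was picked for its low medians, so low members inside it are no separate observation. Psmb10, on chromosome 8, was K-low outside any such region. The K-high genes Akap12, Fam211b, Msrb3, Soga3, Cnn2 and Mmp11 lie on chromosome 10, as does Cdk4, and the K-low genes Tbx2, Aurkb, Blmh, Kif18b, Hmmr, Csf2, Top2a and Cdc6 on chromosome 11. DNA copy number was not measured.

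The coculture libraries are other libraries of the same clones. Of the 148 K-high genes 136 were tested there, and 127 were above the mean of the 6 clones (against 34.5% of all genes there). Of them 71 were again K-high, which is 48% of the list and 45.2% of the 157 K-high genes of coculture (1.17% of 13399 genes). Their median log2 difference was 2.58 in mono-culture and 2.02 in coculture. Of the 310 K-low genes 302 were tested, and 281 were below the mean (against 33.9% of all genes there). Of them 70 were again K-low (against 1.00% of all genes there), and the median of the K-low genes went from -2.88 to -1.56. With the libraries of sheet A alone, which hold no mono-culture library of clone K, 64 K-high and 47 K-low genes kept the call (1.12% and 0.711% of all genes), and with sheet B alone, where clone E is missing, 49 and 121 did.

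**Figure D5:**
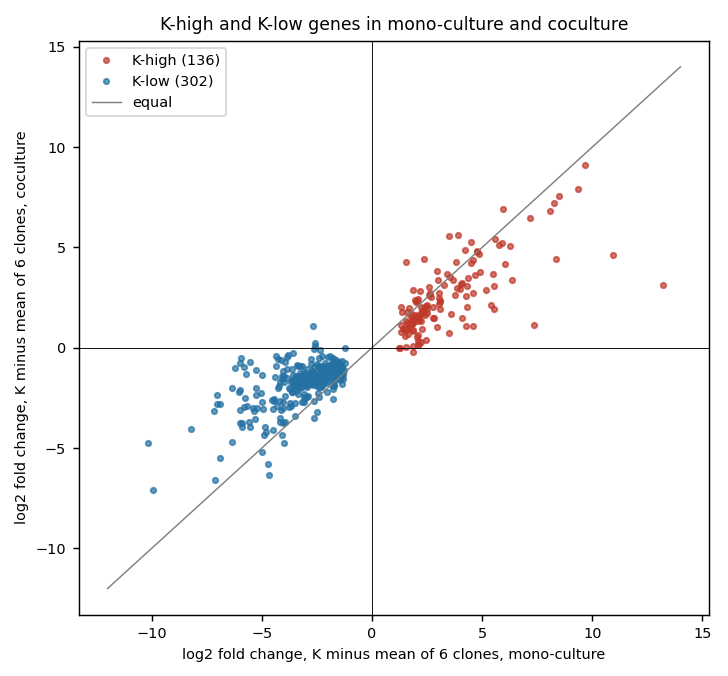
Log2 fold change of clone K against the mean of the 6 clones in mono-culture (horizontal) and coculture (vertical) for 136 K-high (red) and 302 K-low (blue) genes, with a line of equality. Most points lie in the upper right or lower left quadrant and closer to 0 in coculture, with medians of 2.02 and -1.56 there.

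Genes of the sharpest pattern behaved unequally. Tshz3 was at 12.5 CPM in coculture against 0.375 to 0.634 CPM in the other clones, Scn9a at 4.82 against at most 0.645 CPM, Cxcl12 at 575 against 6.99 to 102 CPM, Htatip2 at 0.795 against 27.7 to 54.2 CPM and Ptges at 3.85 against 44 to 120.0 CPM, and Epb4.1l3 at 80.4 against 6.27 to 13 CPM (means of 4 libraries a clone). Tagln and Akap12 were no longer K-high, with 8.72 CPM against 3.26 to 8.31 CPM and 28 CPM against 9.28 to 17.7 CPM, and Acta2 was at 16.4 CPM, inside the 5.67 to 27.1 CPM of the other clones. The cell cycle list had a median of -0.83 and 2 of its 45 genes were K-low (against 1.00% of all genes there). Mki67 was at 41.3 CPM against 67.1 to 186 CPM. The integrated stress response list moved further from the mean, to -1.43, with 31 of 32 genes below it (against 33.9% of all genes there). The fibroblast list summed to 864 to 2099 CPM in the coculture libraries of clone K, against 287 to 419 CPM in mono-culture, and its part in the levels of Tagln, Akap12, Acta2 and Epb4.1l3 there was not tested.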

How the data were processed

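RNA sequencing libraries of polyadenylated, strand-specific RNA were grouped by clone and culture, which the labels give. The authors deposited read counts on 39017 genes, made with featureCounts per the labels, and RPKM values; the build in the submitters' processing notes is mm10, and the aligner is not given in the sources used here. Positions came from GENCODE M21 on GRCm38, which placed 99.83% of counts. Counts were normalized by TMM, filtered by filterByExpr and fitted to all clones with edgeR 4.0.16 (R 4.3.3), and each clone was contrasted with K and with their mean. CPM was computed from TMM-scaled totals. The genes, the 39 gene lists and the comparison were chosen with earlier results of these data known. Named genes were the 15 of largest gap in each direction, genes on or off alone, called members of each list or otherwise its 2 largest, those the study names, and cell markers; 2 of them are not reported here. Alternatives used DESeq2 1.42.0, and limma 3.58.1 on log2 RPKM with pseudocounts of 1 and 0.1 (genes of at least 1 RPKM). The fits were tested on simulated data.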

Additional observations from a re-analysis of the deposited data

Results flagged for a closer look

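Dixon's test, run on 84 groups of 4 mono-culture libraries of clone K, flagged 8 genes in which a library stood far from the other 3, and chance flags about 1 group in 20. In all 8 the library was replicate 4 and the highest, with Ptges at 6.603 CPM, Itih2 at 3.301, Isoc1 at 1.335, Ccnb2 at 5.83, Cdca3 at 5.479, Ube2c at 10.11, Hmmr at 5.69 and Krt19 at 344.8 CPM. When the libraries numbered 4 of all clones were left out, all 8 genes were still called below the mean of the 6 clones. The KPC1 line, which no comparison used, had Scn9a at 14.5 CPM (12.37 to 16.88 over 4 libraries), above every mono-culture library of clone K.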

How the results depend on the processing

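Depth limits the values of genes with few or no counts in clone K, such as Car12 and Csf2, since 3 counts over a clone lie near 0.05 CPM. Sheet and clone cannot be fully told apart in mono-culture, and the cause of each shift below was not tested. For 104 named genes, 1228 values of the difference from the mean of the other clones were compared under the alternatives. Of these, 1203 kept their direction and side of the threshold, 21 lost the call against the mean, and 4 turned on the log2 scale. The 4 were mt-Atp8 in coculture libraries (0.099), Eif2ak4 within sheet B (-0.046) and in coculture libraries (-0.069), and Smad4 in coculture libraries (-0.022). Whether a gene stayed K-high or K-low was not part of this count. Tshz3 lost its call with the sheet as a covariate (adjusted p = 1) at the same log2 difference of 10.92.

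K-high genes numbered 269 within sheet B, 226 without clone M (155 to 226 over the clones left out), 73 by limma on log2(RPKM + 1) and 93 on log2(RPKM + 0.1), 38 at a log2 fold change of at least 2 and 1141 with no minimum, and 135 to 170 when libraries were left out. K-low genes numbered 72 by limma on log2(RPKM + 1), 134 in coculture libraries, 121 at a log2 fold change of at least 2 and 1200 with no minimum, and 249 to 370 when libraries were left out. The share of higher genes among those called against the mean was 52% in the main comparison and 39.3% and 40.2% by limma, and K-high genes were 32.3% of K-high and K-low genes together, 42.3% within sheet B, 50.3% by limma on log2(RPKM + 1) and 54% in coculture libraries. RLE scaling gave 147 and 309, and DESeq2 146 and 311.

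Genes on and off in K alone numbered 3 and 1 at limits of 2 and 0.05 CPM and 21 and 35 at 0.5 and 0.2 CPM, and leaving out a library of clone K gave 4 to 5 on and 9 to 12 off, with 10 off without replicate 3 and 12 without replicate 4. On clone sums, DESeq2 called 239 higher and 585 lower, leaving out a clone 1 to 5 and 0 to 4 (fewest without E, T or V and most without H), limma 7 and 1, coculture libraries 5 and 1, and an adjusted p under 0.05 left 1 and 0. The K-low genes with the same call in coculture numbered 121 within sheet B.

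The chromosome 10 median was 0.33 within sheet B, 0.25 and 0.30 by limma with pseudocounts of 1 and 0.1, 0.36 in coculture libraries, and 0.37 to 0.40 when libraries were left out. The chromosome 11 median was -0.40 by limma with a pseudocount of 0.1, -0.28 in coculture libraries, and -0.32 to -0.35 when libraries were left out. The cell cycle median was -0.92 within sheet B, -0.84 by limma with a pseudocount of 1, -0.83 in coculture libraries, and -1.09 to -1.39 when libraries were left out.

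The labels do not say that a number marks a shared batch, and the libraries were not treated as paired, since only 28 of 84 same-numbered pairs had a correlation of deviations over 0.1. The median was 0.055 (from -0.13 to 0.30) for pairs of the same number and -0.021 for pairs of different numbers, and 18 of 28 libraries correlated best with their own number. With the replicate number as a block, 150 genes were K-high and 309 K-low, and 4939 and 4563 genes differed from the mean.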
